A study of Homo sapiens with 15 samples.

Results

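The 10 genes described here are known to be switched on by the tumour suppressor p53 and act in DNA repair, nucleotide supply and metabolism. Their RNA was measured by sequencing in A549, a line from a lung adenocarcinoma that serves as a model of the alveolar epithelium, in high and in normal oxygen. The genes are DDB2, XPC, RRM2B, POLH, FDXR, TIGAR, SESN1, SESN2, TP53I3 and ZMAT3. They were chosen by symbol, as a set of known p53 targets in repair and metabolism, and they are 10 of the 43388 genes in the count tables. All 10 passed the filter on low counts, and all are protein-coding. Gene coordinates are those of RefSeq (GRCh38.p14).

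The cells, labelled wild type, were grown in one medium, given their agent, if any, 24 hours ahead of the gas exposure, and then held for 72 hours in hyperoxia (95% oxygen) or normoxia (21% oxygen). The agent was 1e-05 mM ATRA (all-trans retinoic acid, the form in which vitamin A acts on nuclear receptors), its ethanol vehicle, or neither of them, which makes 6 groups. Each oxygen level had 3 libraries with ATRA, 2 with vehicle and 2 with neither agent, so that 14 libraries entered the comparisons. The labels do not say whether libraries of a group came from separate cultures, so p-values measure the spread between these libraries, which may be technical. A further library carried conflicting labels and was placed in no group.

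p53 is a transcription factor that is kept low by its target MDM2 and accumulates when DNA is damaged, as reactive oxygen species can do. Its targets include genes that stop the cell cycle, such as CDKN1A, and genes that help a cell to repair and survive. Some of the 10 genes act in nucleotide excision repair, deoxynucleotide synthesis and bypass of damaged bases. Others act in mitochondrial electron transfer, sugar metabolism, restraint of the growth kinase complex mTORC1, quinone reduction and RNA binding.

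p53 binds a pair of short elements, decamers of 10 letters each, and exact matches near the starts of these genes are shown because p53 is known to act through such DNA. The reference was searched for the p53 consensus decamer, which reads the same on both strands, within 2500 bases of each start listed by RefSeq, with 2 decamers at most 3 bases apart and no mismatch, a rule set after sequences had been looked at. Of the 9 genes with a start in the table, 3 held such a pair near at least 1 start. Such a pair was found for 0.256% of all 27305 listed genes and at 0.219% of all 35116 starts. Exons and introns around the matches are those of GENCODE 44. Capitals mark the decamers.
DDB2: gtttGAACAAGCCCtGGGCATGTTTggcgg
TIGAR: tgccAGACATGTCCacAGACTTGTCTgggt
ZMAT3: tcataAAACAAGTCCAGACATGCCTaggca

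The DDB2 stretch lies at chr11:47214975-47215004 on the plus strand, in an untranslated exon. That of TIGAR is at chr12:4321611-4321640 on the plus strand, in an intron 402 bases after the start. The ZMAT3 stretch, at chr3:179070183-179070212 on the minus strand, is intronic, 1602 bases after one start and 865 bases before another. Single decamers were then sought in the 250 bases before to 50 bases after each start, where 6.632% of all 35116 windows and 8.064% of all genes hold one. FDXR and SESN1 each held 1 there, beside the pair in DDB2.
FDXR: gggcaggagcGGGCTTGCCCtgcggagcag
SESN1: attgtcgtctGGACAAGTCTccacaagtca

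The FDXR decamer begins 11 bases before a start (chr17:74872986-74873015, minus strand, upstream of the RefSeq gene but in an untranslated exon of longer GENCODE 44 transcripts) and the SESN1 decamer 49 bases before one (chr6:109009018-109009047, minus strand, in an intron of the longer gene). These matches describe letters in a window and do not show binding in A549 cells.

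Between 2642377 and 5605072 reads per library (median 4038112) fell on genes, so that 3 counts correspond to 0.535 to 1.14 CPM (counts scaled to the normalized size of the library, the unit of all levels given here). One hyperoxia library with neither agent, titled IA01, stood apart: 12657 genes had a count in it, against 16465 or more in each of the others, and its mean correlation with the other hyperoxia libraries was 0.823 where the other libraries had 0.895 or more with those of their own oxygen level. The comparison with neither agent, which rests on it most, is given with and without it. The epithelial markers EPCAM, KRT8, KRT18, KRT19 and CDH1 together came to between 1665 and 4159 CPM in hyperoxia and between 5562 and 9287 CPM in normoxia. KRT8 and KRT18 had at least 1890 counts in every library, whereas EPCAM never had more than 24. Marker sums stayed at or below 13.4 CPM for fibroblasts, 15.5 CPM for immune cells and 6.08 CPM for endothelium, all 3 with their highest library in normoxia, and the defining markers CD3E and VWF had no count in any library. The lower epithelial sum accompanied every oxygen difference described here, and its part in them was not tested. In bulk RNA a change in level per cell and a change in the share of cells that express a gene cannot be told apart.

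With vehicle, hyperoxia raised all 10 genes at least 2-fold. The largest changes were those of FDXR, SESN2 and ZMAT3 and the smallest those of XPC, TIGAR and POLH. The log2 fold changes ran from 1.01 to 1.90 with a median of 1.38, beside a median of 0.01 over the 14957 genes tested, and all 10 were called by edgeR's quasi-likelihood test at a Benjamini-Hochberg adjusted p of 0.00715 or less. Of all genes tested in that comparison, 8.68% were called higher, 8.81% were called lower and 4.18% were called higher with a change of at least 2-fold. Over all 14 libraries, with the agent as a term in the model, the 10 genes were again called higher (background 15.4%), with log2 fold changes between 1.02 and 2.32 and adjusted p from 8.01e-11 to 5.13e-05. For 9 of them every hyperoxia library was above every normoxia library, which holds for 6.34% of the genes tested. The exception was XPC. An exact two-sided permutation test over libraries gave p = 0.000583 for each of those 9 genes, the smallest value that 3432 splits of 7 against 7 libraries allow, and p = 0.00117 for XPC.

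**Figure D1:**
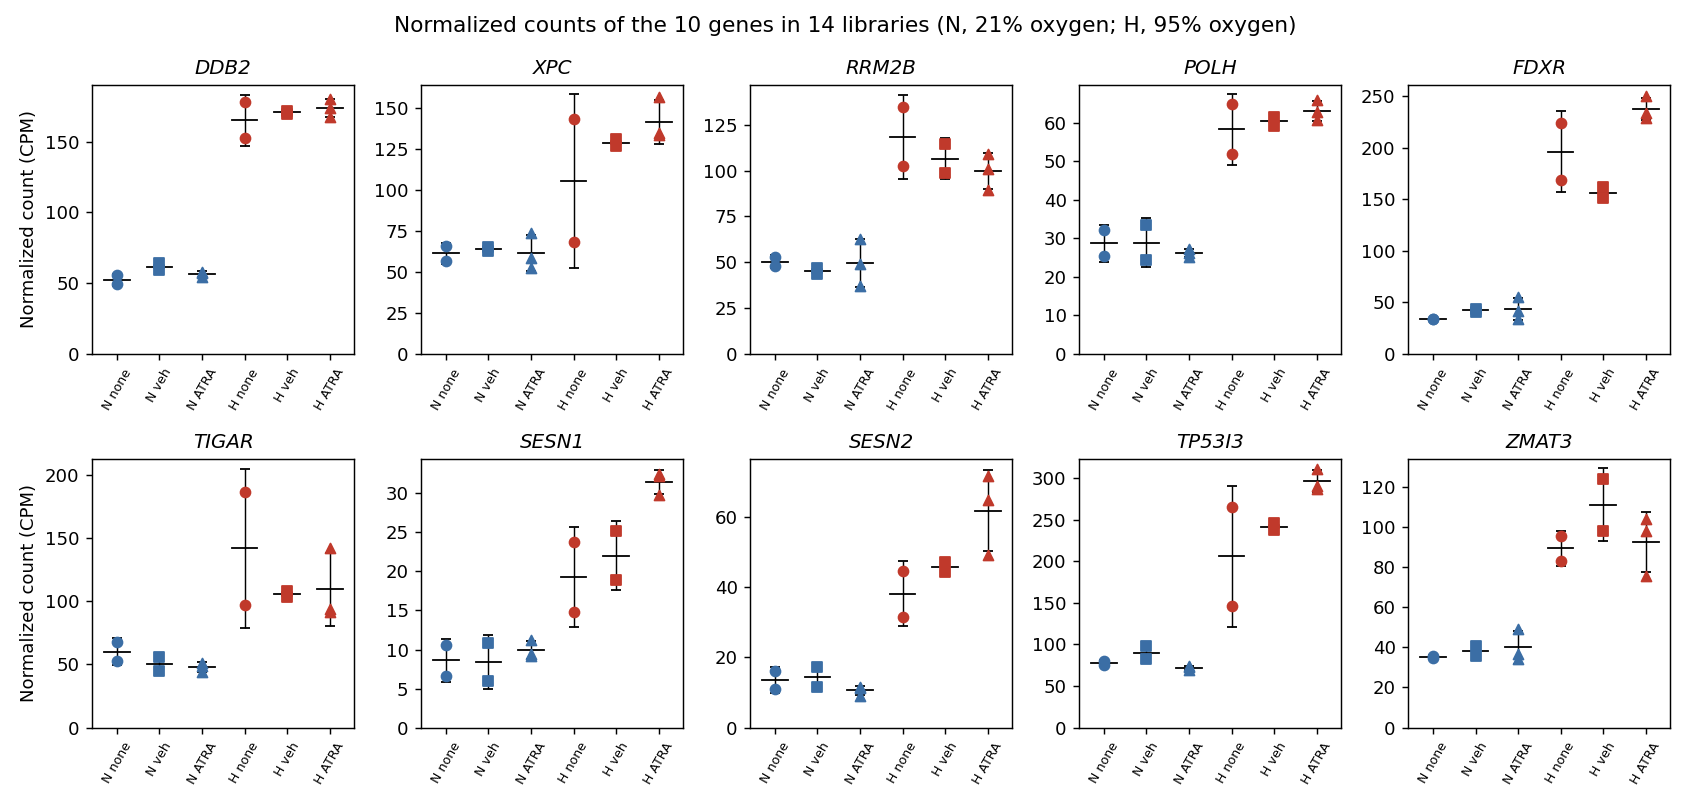
Normalized counts (CPM, linear axes from 0) of each gene in each of 14 libraries, by oxygen (N, 21%; H, 95%) and agent (none; veh, vehicle; ATRA); points are libraries, horizontal lines group means and error bars SD (n = 2 or 3). The red hyperoxia points lie above all blue normoxia points in 9 panels, and in XPC 1 hyperoxia library, at 68.1 CPM, sits among the normoxia libraries.

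DDB2 and XPC find damaged bases for nucleotide excision repair, the first by recognising ultraviolet photoproducts as part of an E3 ligase with DDB1, the second by sensing the distorted helix and calling in the repair complex. DDB2 (chr11:47214454-47239217, plus strand) stood at 49.1 to 64.3 CPM in normoxia (median 57.3) and at 152 to 180 CPM in hyperoxia (median 172). Of the 10 genes it had the lowest coefficient of variation between the 2 vehicle hyperoxia libraries (0.956%) and between the 3 with ATRA (3.62%). XPC (chr3:14145147-14178601, minus strand) stood at 52.6 to 74.0 CPM in normoxia (median 62.8). In hyperoxia it read 127 and 132 CPM with vehicle, 133, 135 and 157 CPM with ATRA, and 68.1 and 143 CPM with neither agent. The 68.1 CPM value came from IA01, and the other 6 hyperoxia libraries were all above the highest normoxia library. The log2 fold change with vehicle was 1.47 (SE 0.15, adjusted p = 2.77e-07) for DDB2 and 1.01 (SE 0.17, adjusted p = 0.000191) for XPC.

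With vehicle, the partners of both proteins changed less or not detectably. DDB1, the adaptor that DDB2 binds, had a log2 fold change of -0.24 (SE 0.12, adjusted p = 0.216), and RAD23B, which stabilises XPC, rose by 0.40 (SE 0.13, adjusted p = 0.0377). Over all 14 libraries edgeR called DDB1 lower (-0.20, adjusted p = 0.0237) and RAD23B higher (0.31, adjusted p = 0.00288). Among 29 nucleotide excision repair partners, 3 were called higher and 4 lower with vehicle, with a median log2 fold change of -0.17. The smallest p-values in that list belonged to the DNA ligases LIG3 (-1.14, SE 0.23, adjusted p = 0.00101) and LIG1 (-0.83, SE 0.19, adjusted p = 0.00323), which seal repaired strands and fell.

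RRM2B encodes p53R2, a small subunit of ribonucleotide reductase that makes deoxynucleotides in cells that are not replicating, while RRM2 is the small subunit of cells in S phase and RRM1 the large subunit that both pair with. RRM2B lay between 37.0 and 62.7 CPM in normoxia (median 47.7) and between 89.5 and 135 CPM in hyperoxia (median 102). With vehicle it rose by 1.24 (SE 0.20, adjusted p = 0.000153) on the log2 scale. RRM1 fell by 0.81 (SE 0.19, adjusted p = 0.00446). RRM2 changed by -0.82 with vehicle, short of the threshold (SE 0.28, adjusted p = 0.0522), and fell with ATRA (-0.78, adjusted p = 0.0209), where RRM2B rose. With neither agent RRM2 fell (-1.29, adjusted p = 0.0316), but the call was lost without IA01 (-0.83, adjusted p = 0.154). Over all 14 libraries RRM2 fell (-0.93, adjusted p = 0.00143), and also without IA01 (-0.80, adjusted p = 0.000172). The ratio of RRM2B counts to RRM2 counts within a library, looked at after the values were seen, was between 0.226 and 0.376 in normoxia and between 0.690 and 2.76 in hyperoxia, the last in IA01, without which the highest was 2.06. Of the 10 genes listed for ribonucleotide reductase and deoxynucleotide supply beside RRM2B, among them RRM1 and RRM2, none was called higher with vehicle and 3 were called lower, RRM1 included and led by thymidine kinase TK1 (-1.82, SE 0.24, adjusted p = 1.27e-05).

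POLH (chr6:43576185-43620523, plus strand), the translesion polymerase eta that copies past ultraviolet lesions, rose from between 24.3 and 33.4 CPM (median 26.1) to between 51.7 and 65.8 CPM (median 61.5). Its log2 fold change with vehicle was 1.08 (SE 0.21, adjusted p = 0.000795), and the call was lost without replicate 2 of the vehicle normoxia group (0.83, adjusted p = 0.0552). Of the other Y-family polymerases, POLK rose by 0.88 with vehicle (SE 0.20, adjusted p = 0.00297) but had 0.31 with ATRA (adjusted p = 0.193). POLI and REV1, the rest of that family, had 0.34 (adjusted p = 0.623) and -0.06 (adjusted p = 0.915) with vehicle. Over 11 translesion genes 2 were called higher and 1 lower, the last being POLQ (-1.50, SE 0.30, adjusted p = 0.00124), the polymerase of microhomology end joining. GTPBP2 is transcribed the other way, overlaps POLH by 30 bases and had 49.5% as many counts. Its log2 fold change was -0.50 (adjusted p = 0.265).

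**Figure D2:**
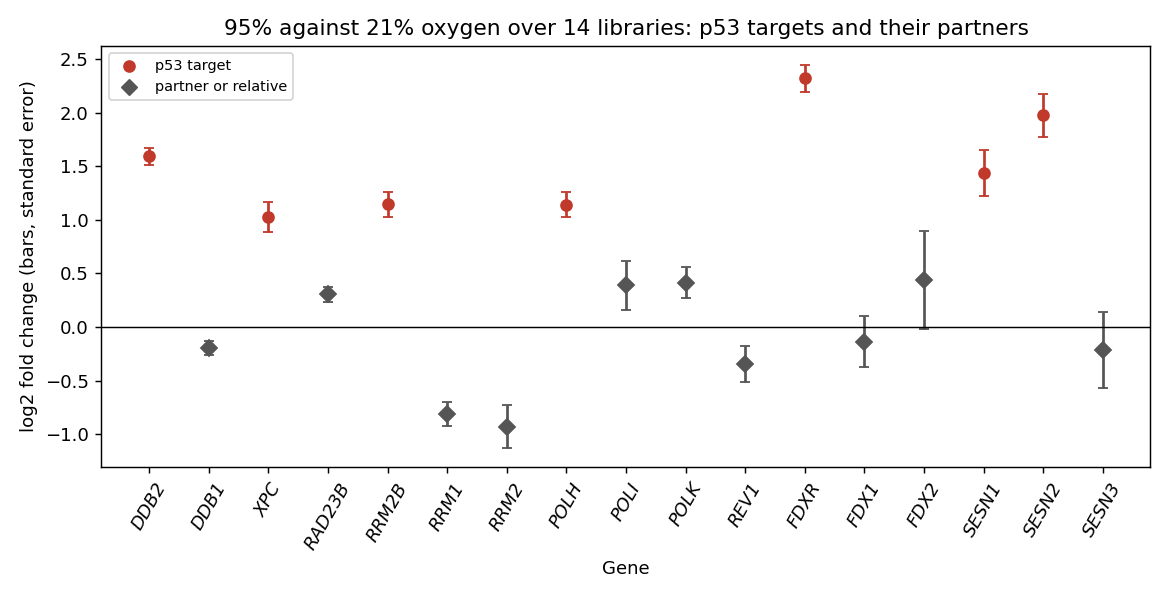
Log2 fold change between 95% and 21% oxygen over 14 libraries, with agent as a term, for 7 of the p53 targets (red circles) and 10 partners or relatives (grey diamonds); bars are standard errors. The red points lie between 1.02 and 2.32, the partners between -0.93 and 0.43.

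FDXR (chr17:74862497-74872994, minus strand), ferredoxin reductase, passes electrons from NADPH to ferredoxin in mitochondria for steroid and iron-sulfur cluster synthesis. In normoxia its 7 libraries read 33.3 to 55.2 CPM (median 40.3). In hyperoxia it had 151 and 162 CPM with vehicle, 229, 234 and 250 CPM with ATRA, and 168 and 224 CPM with neither agent. The 3 ATRA libraries were the highest of the 7, above the 224 CPM of IA01, and no hyperoxia library came near the normoxia range. The ratio of medians, 5.57, was the largest of the 10 genes, and the log2 fold change was 1.90 with vehicle (SE 0.18, adjusted p = 1.88e-07), 2.44 with ATRA and 2.55 with neither agent (2.32 without IA01). Neither of its electron acceptors passed the test, FDX1 having -0.40 (SE 0.40, adjusted p = 0.573) and FDX2 1.12 (SE 0.41, adjusted p = 0.0623) with vehicle. Among the 13 tested genes of the ferredoxin and iron-sulfur chain, 3 were called higher and none lower. The scaffold ISCU (1.02, SE 0.20, adjusted p = 0.000787) and the late assembly factor IBA57 (1.15, SE 0.35, adjusted p = 0.0254) had the smallest p-values.

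TIGAR (chr12:4321213-4360028, plus strand), a fructose bisphosphatase that turns glucose from glycolysis towards the pentose phosphate pathway, read 43.7 to 67.9 CPM in normoxia (median 51.3). In hyperoxia it had 104 and 108 CPM with vehicle, 91.8, 94.0 and 142 CPM with ATRA, and 97.4 and 186 CPM with neither agent. The highest values, 186 and 142 CPM, belonged to IA01 and to replicate 1 of the ATRA group, titled IA02. Its log2 fold change with vehicle was 1.06 (SE 0.20, adjusted p = 0.000819). Enzymes of the pentose phosphate pathway were among the genes that fell. TKT, a transketolase, fell by 1.03 (SE 0.14, adjusted p = 1.55e-05) and PGD, an enzyme of the oxidative branch, by 0.79 (SE 0.13, adjusted p = 0.000142). The list of 13 tested genes joined the pentose phosphate pathway with control of glycolysis. In it 4 genes were called lower and 1 higher, not all of them from the pentose phosphate pathway.

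SESN1 and SESN2 are stress proteins that hold back mTORC1, SESN2 also as the sensor of leucine. SESN1 (chr6:108984309-109094846, minus strand) was the least counted of the 10 genes, at 5.91 to 11.2 CPM in normoxia (median 9.39) and 14.8 to 32.5 CPM in hyperoxia (median 25.2). SESN2 (chr1:28259518-28282491, plus strand) had 9.05 to 17.2 CPM in normoxia (median 11.5). In hyperoxia it read 44.3 and 47.2 CPM with vehicle, 49.0, 64.9 and 71.6 CPM with ATRA, and 31.6 and 44.6 CPM with neither agent. The groups of both genes stayed apart by oxygen, with the lowest hyperoxia library again IA01. With vehicle SESN2 rose by 1.64 (SE 0.27, adjusted p = 0.00013) and SESN1 by 1.34 (SE 0.33, adjusted p = 0.00715). The SESN1 call was lost without replicate 1 of the vehicle hyperoxia group (1.10, adjusted p = 0.117) or of the vehicle normoxia group (0.99, adjusted p = 0.141). SESN3, the third sestrin, which is known as a FOXO target, had -0.26 (SE 0.33, adjusted p = 0.668). Among 18 genes between the sestrins and mTORC1, 3 were called higher and 2 lower with vehicle. DDIT4, another stress inhibitor of mTORC1, fell by 2.01 (SE 0.21, adjusted p = 4.25e-07), and RPTOR, the scaffold of mTORC1, rose by 0.85 (SE 0.15, adjusted p = 0.000301). With ATRA the oxygen change was -0.75 for DDIT4 (adjusted p = 0.00179) and 0.70 for RPTOR (adjusted p = 0.000251). In hyperoxia DDIT4 was higher with ATRA than with vehicle (1.05, SE 0.19, adjusted p = 0.00338). SESN1 overlaps ARMC2, which runs the other way, had 11.3% as many counts and changed by 0.62 (SE 1.13, adjusted p = 0.785).

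TP53I3 (chr2:24077433-24084834, minus strand), or PIG3, a quinone oxidoreductase linked to oxidative stress and to the p53 response, had 69.5 to 97.7 CPM in normoxia (median 74.8). In hyperoxia it read 237 and 246 CPM with vehicle, 287, 291 and 311 CPM with ATRA, and 146 and 266 CPM with neither agent. The ATRA libraries were the highest and IA01 the lowest, still above all normoxia libraries. With vehicle TP53I3 rose by 1.43 (SE 0.14, adjusted p = 2.17e-07). The whole of TP53I3 lies within FAM228B, a gene that runs the other way and had 21.0% as many counts, and FAM228B rose as well (1.56, SE 0.28, adjusted p = 0.000452). Whether the counting used strand is not given in the sources used here, so reads of this pair cannot be told apart, and the value of TP53I3 may hold some of its neighbour's. Among 5 relatives of TP53I3, VAT1 rose (0.46, SE 0.13, adjusted p = 0.0138) and CRYZ fell (-0.74, SE 0.24, adjusted p = 0.0349).

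ZMAT3 (chr3:179017223-179072513, minus strand), or Wig-1, is a zinc finger protein that binds RNA and alters the stability and splicing of messages. It stood at 34.2 to 49.3 CPM in normoxia (median 35.9) and 75.8 to 124 CPM in hyperoxia (median 98.2), with no overlap. The highest library was replicate 1 of the vehicle group and the lowest hyperoxia library was replicate 2 of the ATRA group. With vehicle it rose by 1.55 (SE 0.21, adjusted p = 1.6e-05). None of the 3 tested genes of its family was called in any of the oxygen comparisons, the smallest p-values with vehicle being those of ZMAT5 (0.94, SE 0.53, adjusted p = 0.26) and ZMAT2 (-0.32, SE 0.23, adjusted p = 0.402).

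The oxygen comparison was then made for each agent, in libraries that the 3 comparisons do not share. With ATRA, all 10 genes were called higher, against 11.4% of all genes tested, with log2 fold changes between 1.02 for RRM2B and 2.53 for SESN2 and a median of 1.44. With neither agent, 8 of 10 genes were called higher, against 7.57% of all genes, and the other 2, XPC (0.77, SE 0.26, adjusted p = 0.0576) and SESN1 (1.16, SE 0.41, adjusted p = 0.072), were higher in the fit without passing the threshold. IA01 is 1 of the 2 hyperoxia libraries of that comparison. Without it, which leaves 1 hyperoxia library that is assumed to vary like the other groups of the fit, XPC had 1.22, SESN1 1.47 and TIGAR 0.69. Without replicate 2 of that group, leaving IA01 as the lone hyperoxia library, XPC had 0.09. DESeq2 called all 10 (XPC adjusted p = 0.0336, SESN1 adjusted p = 0.0435). On simulated counts for this comparison, with 200 genes changed, 17.4% of the DESeq2 calls were false. A fit of the 4 libraries with neither agent alone called 1 gene, FDXR (2.54, adjusted p = 0.0428), with folds close to those of the larger fit, such as 1.66 for DDB2 (adjusted p = 0.0545) and 1.41 for TP53I3 (adjusted p = 0.152). The share of all genes called was not counted for DESeq2 or for the fit of 4 libraries.

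**Figure D3:**
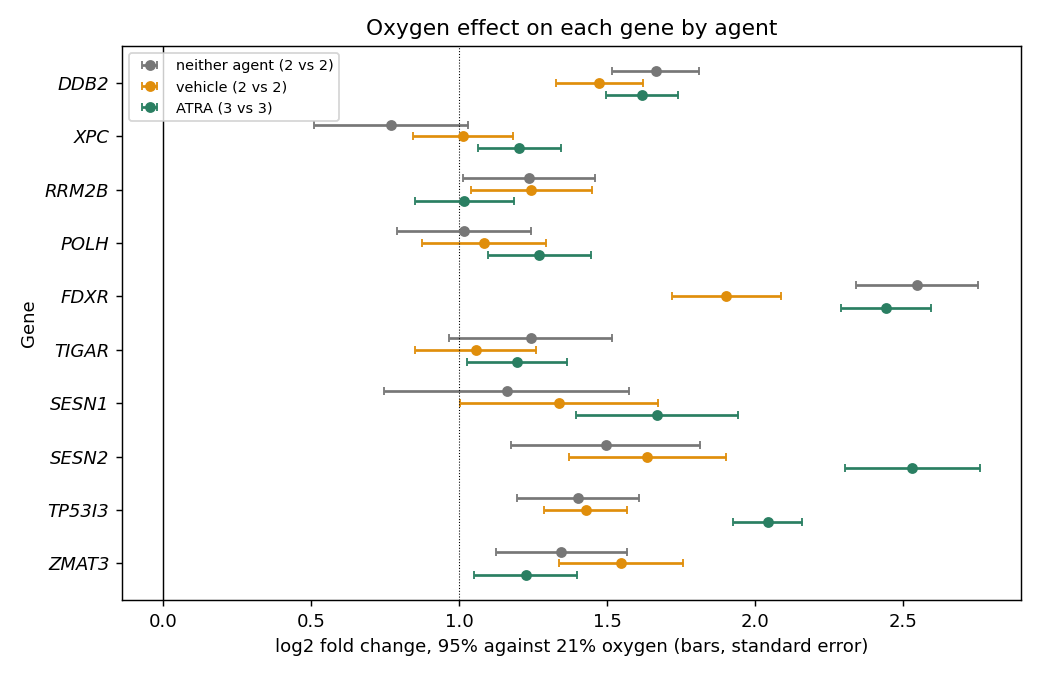
Log2 fold change between 95% and 21% oxygen for each of the 10 genes, separately for libraries with neither agent (grey), vehicle (orange) and ATRA (green); bars are standard errors and the dotted line marks a 2-fold change. Of 30 estimates 29 are past the dotted line, XPC with neither agent being at 0.77.

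The effect of ATRA itself was called for 1 of the genes. In hyperoxia, FDXR was 0.60 higher with ATRA than with vehicle on the log2 scale (SE 0.15, adjusted p = 0.0417), the 1 call among the 10 genes beside 1.52% of all genes called higher and 2.21% called in either direction. Each of the 3 ATRA libraries was above both vehicle libraries, yet 1 of the 2 libraries with neither agent, at 224 CPM, came close to them. The call was lost when all 14 libraries were fitted in 6 groups (0.60, adjusted p = 0.183), when the neither-agent libraries served as controls (0.27, adjusted p = 0.409), when both kinds of control were pooled (0.44, adjusted p = 0.182), and in 8 of 10 fits that each left out 1 library (0.55 to 0.65). Log2 differences of the other 9 genes ran from -0.25 for ZMAT3 to 0.52 for SESN1. In normoxia, edgeR called none of the 10 genes between ATRA and vehicle (1.25% of all genes were called) and DESeq2 none. TP53I3 was the 1 member with an unadjusted p under 0.05 (8.79% of all genes had one), with a log2 difference of -0.32 (SE 0.13, adjusted p = 0.425). Standard errors in this comparison reached 0.32, that of SESN1, and a p above the threshold does not show that the levels were equal.

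Whether ATRA changed the oxygen effect was tested as an interaction. edgeR called none of the 10 genes (0.14% of all genes were called), with 3 at an unadjusted p under 0.05 (7.21% of all genes were), all with a larger oxygen effect under ATRA. TP53I3 had an interaction of 0.62 (SE 0.18, adjusted p = 0.336), SESN2 of 0.90 (SE 0.35, adjusted p = 0.557) and FDXR of 0.54 (SE 0.23, adjusted p = 0.623). DESeq2 called TP53I3 (adjusted p = 0.0296) and gave no adjusted p for SESN2, SESN1 and POLH. In hyperoxia TP53I3 averaged 296 ± 13.3 CPM under ATRA (SD, n = 3) and 242 ± 5.85 CPM under vehicle (SD, n = 2). In normoxia its averages were 71.8 ± 2.10 CPM under ATRA and 90.2 ± 10.5 CPM under vehicle, so that the ATRA libraries were above the vehicle libraries at one oxygen level and below them at the other. SESN2 averaged 61.8 ± 11.6 CPM under ATRA and 45.7 ± 2.03 CPM under vehicle in hyperoxia, and 10.6 ± 1.32 CPM and 14.3 ± 4.05 CPM in normoxia, where the highest ATRA library (11.45 CPM) lay just under the lower vehicle library (11.47 CPM). The vehicle made no called difference. Between vehicle and neither agent edgeR called none of the 10 genes in hyperoxia (0.00652% of all genes), none in normoxia (0%) and none for the difference between the oxygen effects with neither agent and with vehicle (0.00652%). Of the 10, 0 had an unadjusted p under 0.05 in the first pair of comparisons and 1, FDXR, in the last, where its oxygen effect was 0.65 larger with neither agent than with vehicle (adjusted p = 0.869). Of all genes, 8.91% had such a p in hyperoxia, 0.867% in normoxia and 4.85% for the difference of oxygen effects. Leaving out replicate 2 of the hyperoxia group with neither agent leaves IA01 as that group's only library. That fit called some of the 10 genes in hyperoxia and in the difference of oxygen effects. The share of all genes it called was not counted.

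**Figure D4:**
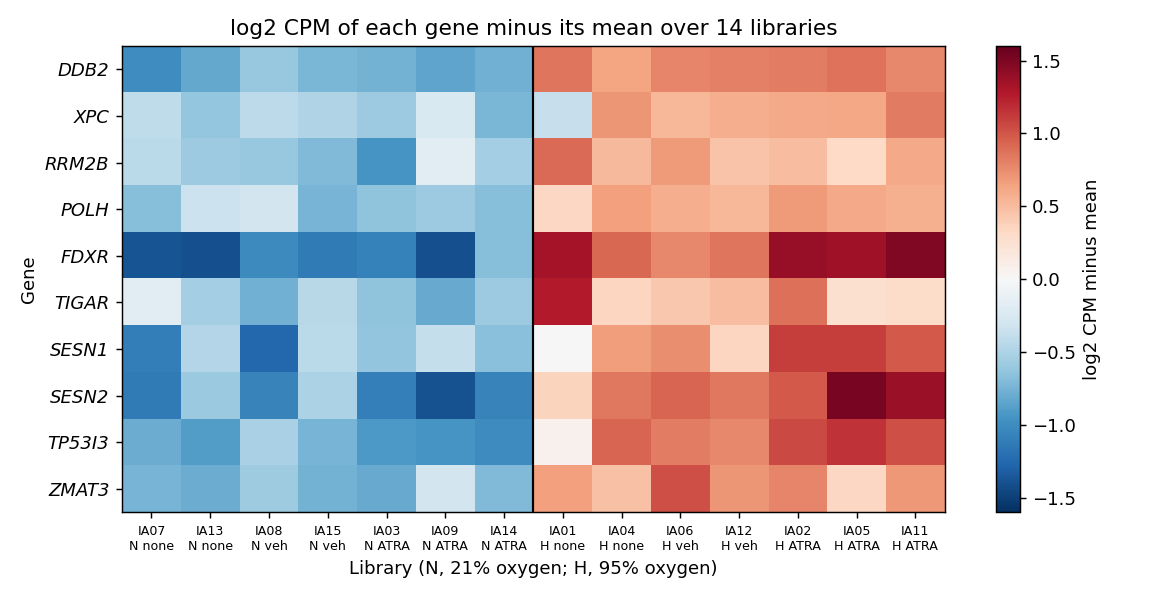
Log2 CPM of each gene in each library minus that gene's mean over 14 libraries, from blue (below) to red (above), with normoxia libraries left and hyperoxia libraries right of the black line (veh, vehicle). Every gene is below its mean in all normoxia libraries, and among the hyperoxia libraries XPC is below its mean in IA01, where SESN1 is at its mean.

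The 10 profiles ran together across oxygen levels and had pairwise correlations of either sign within them. Over all 14 libraries the correlations of log2 CPM between the 45 pairs of genes lay between 0.62 and 0.98 (median 0.90). Within the 7 hyperoxia libraries they lay between -0.86 and 0.93, with a median of 0.02 and 23 pairs above 0 (without IA01 between -0.57 and 0.91, median 0.11, 26 pairs above 0), and within the 7 normoxia libraries between -0.68 and 0.75, with a median of -0.04 and 20 pairs above 0. The pairs share libraries and depth, and these values are given as a description. Across the 14 libraries TIGAR had the lowest correlation with the mean of the other 9 genes (0.84, or 0.91 without IA01) and DDB2 the highest (0.99). The genes outside the set whose log2 CPM followed the mean of the 10 most closely were CYFIP2, GREB1, MDM2, CDKN1A and DCTN5, with Pearson's r over 14 libraries from 0.987 for DCTN5 to 0.994 for CYFIP2. CYFIP2, a partner in actin regulation and a known p53 target, rose from a median of 78.4 to 282 CPM.

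Per kilobase of exon (GENCODE 44), the levels of the genes could be ordered. In normoxia TP53I3 was highest, at a median of 32.4 CPM per kb, and did not overlap the next gene. XPC (13.5), DDB2 (11.8), FDXR (11.2), RRM2B (8.86), TIGAR (5.43), SESN2 (3.31), ZMAT3 (3.18) and POLH (3.12) followed, each overlapping its neighbour, and SESN1 was lowest at 1.29. In hyperoxia TP53I3 (115) and FDXR (62.3) overlapped each other through IA01 alone, without which the lowest TP53I3 value was 103 and the highest of FDXR 69.5, and both stood above DDB2 (35.5 CPM per kb), while SESN1 (3.46) stayed below all others. By median FDXR thus went from the fourth to the second place. The exon lengths come from an annotation that may not be the one used for counting.

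The arrest and feedback targets give a scale for the 10 genes. Over the 14 libraries CDKN1A, the inhibitor of cyclin-dependent kinases, went from a median of 80.9 to 1032 CPM and MDM2, the ligase that degrades p53, from 142 to 981 CPM. With vehicle the log2 fold change was 3.34 (SE 0.14) for CDKN1A and 2.81 (SE 0.16) for MDM2. Over all 14 libraries it was 3.65 for CDKN1A and 2.75 for MDM2. Of 28 other p53 targets, CDKN1A and MDM2 among them, 27 were called higher with vehicle, 27 with ATRA and 23 with neither agent (24 without IA01), with a median of 1.74 in the first. The list was drawn up with earlier results of these data known, and its count is not independent evidence of its direction. It did not hold DDIT4, which fell with vehicle. Between ATRA and vehicle in hyperoxia 0 of the 28 were called higher and 1 lower, beside 1.52% and 0.695% of all genes tested.

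Other stress programmes that share members with this set moved unevenly. SESN2 is also a target of ATF4 in the integrated stress response, and of 10 other genes of that response 3 were called higher and 3 lower with vehicle, against 5 and 2 with ATRA. PPP1R15A, which restarts translation, rose by 3.69 with vehicle (SE 0.28, adjusted p = 8.28e-09), and PSAT1, an enzyme of serine synthesis, fell by 1.53 (SE 0.15, adjusted p = 2.1e-07). Of 10 targets of NRF2, the regulator of antioxidant genes, 5 were called higher and 1 lower with vehicle, led by the heme oxygenase HMOX1 (1.47, SE 0.14, adjusted p = 1.41e-07) and by OSGIN1 (1.59, SE 0.21, adjusted p = 9.01e-06), which slows growth under oxidative stress. With ATRA against vehicle, 5 of these 10 were called lower in normoxia and 3 in hyperoxia, beside 0.435% and 0.695% of all genes tested.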

How the data were processed

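Total RNA of A549 cells was sequenced from strand-keeping libraries. Per the labels and the study's methods, the authors used Trimmomatic 0.38 for trimming, HISAT2 for alignment (hg38) and HTSeq for counting, and deposited raw counts per gene. The annotation release and the strand setting are not given in the sources used here. The 5 HTSeq summary rows were left out. Among them, reads assigned to no counted feature were 48.6% to 55.3% of all reads.

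Groups came from the labels. Genes were filtered with filterByExpr (minimum count 10, total 15) and tested with edgeR 4.0.16 in R 4.3.3 (TMM, quasi-likelihood, Benjamini-Hochberg adjusted over all tested genes, called under 0.05). The vehicle and ATRA libraries (10) were fitted as 4 groups. Comparisons with neither agent used 14 libraries in 6 groups, and the pooled oxygen comparison used those 14 with agent as a term. CPM values use TMM factors. SE is the log2 fold change divided by the root of its F statistic. Alternatives were DESeq2 1.42.0, RLE factors, no filter, other sets of libraries, a term for sets read from library numbers, and leaving out each library. On simulated counts for the vehicle comparison (14481 genes, 200 of them changed) edgeR recovered 40% of 2-fold and 71% of 4-fold changes. With neither agent (14924 genes, 200 changed) it recovered 23% and 58%. Of the edgeR calls in these simulations 5.13% and 0% were false, against 12.1% and 17.4% of those of DESeq2.

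The 10 genes and all lists were chosen with earlier results of these data known. Named beside the 10 genes are their close relatives, CDKN1A and MDM2, the 2 smallest p-values of each list, the 5 most alike profiles and genes overlapping a member with at least 10% as many counts; 1 further gene that this rule names is not reported here. Sequences are from RefSeq (GRCh38.p14); 9 of 10 genes matched. Libraries are named by the code in their titles or by replicate number, which only names them.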

Additional observations from a re-analysis of the deposited data

Results flagged for a closer look

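In 2 of 20 groups tested (each gene in 7 libraries of 1 oxygen level), 1 library lay far from the others by Dixon's criterion, which flags about 1 in 20 groups by chance. Both values came from IA01, the hyperoxia library with neither agent in which the fewest genes had a count. XPC read 68.1 CPM there, and the nearest hyperoxia library had 127 CPM. TP53I3 read 146 CPM there against 237 CPM in the nearest. Over 14 libraries all 10 genes were called higher in hyperoxia with IA01 left out and with both IA01 and IA02 left out.

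The library titled IA10 was used in no comparison: its title says hyperoxia and its treatment label names adipogenic differentiation. All 10 genes were above every normoxia library in it. Scaled with the others, it read 152 CPM for DDB2, 132 for XPC, 94.3 for RRM2B, 56.6 for POLH, 162 for FDXR, 89.5 for TIGAR, 19.6 for SESN1, 50.01 for SESN2, 271 for TP53I3 and 80.9 for ZMAT3. Of these, 8 lay within the range of the 7 hyperoxia libraries, and DDB2 and TIGAR just under it (lowest hyperoxia values 153 and 92.0 CPM on that scale). The share of all genes that lay above every normoxia library, or within the hyperoxia range, in IA10 was not counted, so these counts have no background.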

How the results depend on the processing

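The number of the 10 genes called higher in hyperoxia was 9 or 10 with vehicle and 10 with ATRA and over 14 libraries under every alternative run. With neither agent it was 8, 10 by DESeq2, and 1 when only its 4 libraries were fitted, which leaves few degrees of freedom (log2 fold changes 0.78 to 2.54); leaving out each library gave 6 to 9. With vehicle, SESN1 missed the threshold in the fit of 14 libraries (1.36, adjusted p = 0.0504). For ATRA against vehicle in hyperoxia the count was 1, and 0 in the fit of 14 libraries, with neither-agent controls and with pooled controls, both control sets chosen after seeing the data; leaving out each library gave 0 to 1. The cause was not tested. The interaction of ATRA with oxygen had a count of 0, and 1 by DESeq2. For vehicle in hyperoxia, and for the oxygen effect with neither agent against that with vehicle, leaving out a library also changed the count. The highest counts came with IA01 as the only library of its group. The share of all genes called was not counted for these alternatives.

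Directions turned only where a difference was not called. For ATRA in hyperoxia, the log2 difference of RRM2B was 0.0085 and of TIGAR -0.10 with a library set term; with neither-agent controls TIGAR had -0.38 and ZMAT3 0.055, and with pooled controls TIGAR -0.16. For ATRA in normoxia with neither-agent controls, DDB2 had 0.11, XPC 0.0041 and RRM2B -0.029. Leaving out each library gave -0.018 to 0.046 for DDB2, -0.20 to 0.011 for RRM2B and -0.19 to 0.15 for TIGAR with ATRA in hyperoxia. With ATRA in normoxia it gave -0.20 to 0.051 for XPC, -0.061 to 0.31 for RRM2B, -0.35 to 0.10 for POLH, -0.14 to 0.22 for FDXR, -0.23 to 0.10 for TIGAR, -0.14 to 0.74 for SESN1 and -0.10 to 0.18 for ZMAT3. For the interaction of ATRA with oxygen it gave -0.038 to 0.41 for POLH, -0.11 to 0.28 for TIGAR and -0.22 to 0.65 for SESN1. No paired analysis was possible because the labels give no replicate numbers; the library set term rests on the order of library numbers alone and pairs no libraries. Depth (median 4038112 counts) and 2 or 3 libraries per group limit what can be seen. In simulated counts for the vehicle comparison, with 200 of 14481 genes changed, 40% of 2-fold changes were recovered. In the data 17.5% of all genes tested were called there, so the simulation does not give the recovery in these data.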
